A study of Mus musculus with 24 samples.

Results

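The 9 genes described here encode secreted inflammatory cytokines and antagonists of them: Il1a, Il1b, Il1rn, Tnf, Il6, Il10, Il18, Il18bp and Osm. They were named by symbol, with earlier results of these data known, and all 9 were found among the 45706 genes of the count table. IL-1α and IL-1β bind the same receptor, and IL-1RA, the product of Il1rn, occupies that receptor without activating it. IL-18 is a relative of IL-1β that is also cut by caspase-1, and IL-18BP is a soluble protein that captures it. TNF signals through its own pair of receptors to NF-κB, IL-6 and oncostatin M (OSM) signal through the shared chain gp130, and IL-10 restrains the output of most of the others. Tissue-resident macrophages (TRM) are a main source of these proteins when a tissue is disturbed.

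RNA was sequenced from 4 TRM populations of female C57BL/6J mice, labelled as 8 to 12 weeks old, with no genetic change: microglia (MG) from brain, Kupffer cells (KCs) from liver, peritoneal macrophages (PMs) and alveolar macrophages (AMs) from lung. Each population was taken ex vivo by FACS (MG on CD45 and CD11b, KCs also on F4/80 and TIM-4, PMs also on F4/80 and CD115, AMs on CD45, CD11b and SiglecF), and in vitro after 14 days of culture, when the cells are called MG-, KC-, PM- and AM-like cells (MG-LCs, KC-LCs, PM-LCs and AM-LCs). There were 3 libraries in each of the 8 groups. MG-LCs received M-CSF with IL-34, KC-LCs and PM-LCs M-CSF alone, and AM-LCs GM-CSF, all at 20 ng/mL; AM-LCs were kept in a glucose-free medium at atmospheric oxygen and the other cultures at 3% oxygen. No stimulus is named for any of the libraries. The cultures were not sorted, and a flask held cells of 1 mouse (liver) or 3 mice (the other tissues). Liver and lung were digested with enzymes at 37°C, the brain was ground and the peritoneum was rinsed, so that tissue and preparation cannot be told apart in the sorted cells, and population, growth factor and oxygen cannot be told apart in AM-LCs. Nothing in the labels says whether the 3 libraries of a group came from separate mice or flasks, and p-values measure only the spread between these libraries.

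The libraries held 29569486 to 47105111 reads on genes, and a library without a read of a gene allows up to 0.0661 to 0.115 CPM of it (3 reads, counting error only). CPM are reads of a gene scaled to library size with TMM factors, and values after ± are SDs with n = 3 unless marked as SE. A gene is called below where the adjusted p was under 0.05 and the log2 fold change, sorted minus cultured, beyond 1.5 in size. Markers of the labelled cell type were high in each sorted population. In the cultures they were lower: the summed CPM of 4 KC markers was 13890 to 24800 in KCs and 16.9 to 94.0 in KC-LCs. The same sum was 215 to 2233 CPM in MG-LCs and 142.3 to 825.5 CPM in PM-LCs. In each KC-LC and MG-LC library only 1 of the 4 markers was above 10 CPM. The KC marker Clec4f had 0.168, 0 and 0 CPM in KC-LCs. The 4 MG markers summed to 18680 to 19610 CPM in MG and 295 to 2398 CPM in MG-LCs. Genes of fibroblasts and mesothelium (8 genes) stayed between 0.0746 and 23.8 CPM in the sorted libraries and reached 30970 CPM in MG-LC replicate 1, 2208 CPM in PM-LC replicate 2 and 1667 CPM in AM-LC replicate 3. In bulk RNA, fewer cells of a type and less RNA per cell cannot be told apart.

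Every one of the 9 genes differed between the 4 sorted populations (edgeR's quasi-likelihood F-test with Benjamini-Hochberg adjustment, 9 of 9 with adjusted p below 0.05), where 70.9% of all genes tested did. Between the 4 cultures, 1 of the 9 differed, Il10, against a background of 7.85%. That count was 6 with all 24 libraries in 1 model, and Il10 lost its call without any 1 AM-LC library, while the count between sorted populations was 8 or 9 under every alternative run for it. In pairs of sorted populations, called members numbered 5 of 9 for MG against KC (23.9% of all genes), 5 for MG against PM (25.7%), 7 for MG against AM (33.3%), 6 for KC against PM (18.6%), 7 for KC against AM (24.6%) and 9 for PM against AM (21.5%). Between the cultures, MG-LCs differed from AM-LCs in 2 members, Il10 and Il18 (5.15%), and KC-LCs and PM-LCs from AM-LCs in Il10 alone (5.37% and 3.75%), while the other 3 pairs gave no call. Among sorted cells, AMs held the most Il18, Osm, Il1rn and Tnf, KCs the most Il18bp, Il1b and Il10, and MG the most Il1a and Il6. PMs led in no gene, and held the least Il1a, Il1b and Tnf by group mean, while Il10 was lowest in MG and AMs and Il1rn in MG.

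**Figure D1:**
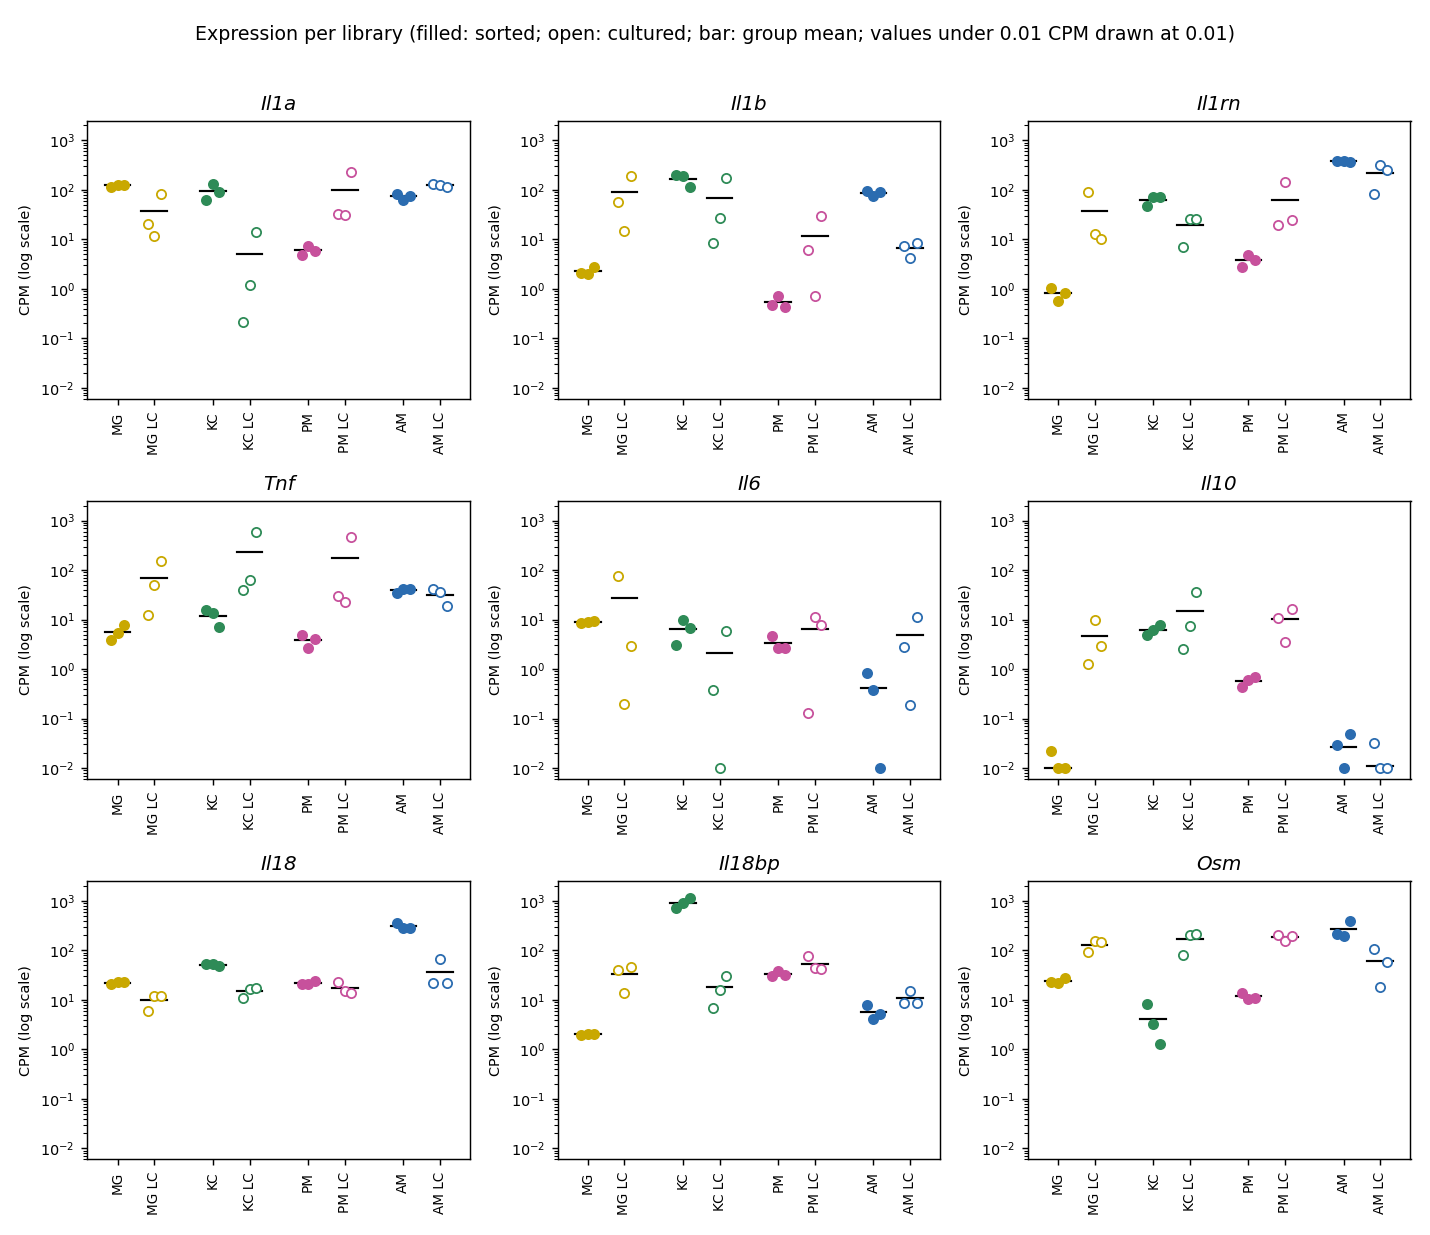
CPM of the 9 genes in each of the 24 libraries on a log axis, with filled points for sorted cells, open points for the cultures (LC) and a bar at the group mean. Sorted libraries of a group mostly lie close together, with exceptions such as Osm in KCs (8.07, 3.27 and 1.26 CPM). The 3 cultures of a group often lie far apart, as for Tnf in KC-LCs (40.0, 64.5 and 586 CPM).

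Il1a, the IL-1 form that is active without being cut and serves as an alarm signal of damaged cells, lies at chr2:129299610-129309972 on the minus strand of GRCm38 (mm10), close to Il1b at chr2:129364570-129371139. A read from a gene and from one on its opposite strand cannot be told apart with this kit, and 11.2% of the exon bases of Il1a also belong to Gm14023 and 1.3% of those of Il1b to Il1bos. Sorted MG had 116, 127 and 128 CPM of Il1a and MG-LCs had 20.2, 11.8 and 82.5 CPM. Sorted KCs had 63.5, 129.5 and 90.9 CPM and KC-LCs 0.216, 1.2 and 13.9 CPM. The groups did not overlap in either population, and the cultures spread far more than the sorted cells. The fall in KC-LCs was called, with a log2 fold change 4.24 ± 1.27 (SE), adjusted p = 0.0355, but not without KC replicate 2 or 3 or KC-LC replicate 2 (adjusted p = 0.0851, 0.0687 and 0.117). The log2 fold change was 7.08 without KC-LC replicate 3 and 3.65 without KC-LC replicate 1. In MG the lower level in culture was not called (log2 fold change 1.65 ± 0.70 (SE), adjusted p = 0.0959). It was called without MG-LC replicate 3 (log2 fold change 2.89, adjusted p = 0.00285), with limma-voom (2.167, adjusted p = 0.03986) and with DESeq2 (1.681, adjusted p = 0.02915).

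PMs went the other way, with 4.81, 7.28 and 5.91 CPM of Il1a when sorted and 33.1, 31.5 and 229 CPM in PM-LCs, so that the lowest culture exceeded the highest sorted library (log2 fold change -4.04 ± 0.86 (SE), adjusted p = 0.0124). The call was lost without any 1 of the sorted PM libraries (adjusted p = 0.057 to 0.0633), and the log2 fold change was -2.40 without PM-LC replicate 3. AMs had 81.4, 63.5 and 77 CPM and AM-LCs 129.5, 128 and 115 CPM, the tightest set of cultures for this gene. That difference passed on the adjusted p but not on the fold (log2 fold change -0.75 ± 0.12 (SE), adjusted p = 0.00253). Among sorted cells, PMs had less Il1a than MG (log2 difference MG minus PM 4.31 ± 0.26 (SE), adjusted p = 1.65e-07), and MG, KCs and AMs lay within a log2 difference of 0.70 of each other (0.33 for MG minus KC, 0.37 for KC minus AM and 0.70 for MG minus AM, adjusted p = 0.267, 0.215 and 0.0225).

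Il1b, which needs caspase-1 to become active and is a common readout of NF-κB activity, had 196, 190.4 and 113 CPM in sorted KCs, the highest group mean of the 8. KC-LCs had 8.64, 27.6 and 173 CPM, and the groups overlapped through replicate 3 of the culture (log2 fold change 1.28 ± 0.92 (SE), adjusted p = 0.313). Without that library the difference passed the test (log2 fold change 3.21, adjusted p = 0.0158). Neutrophil RNA was unequal in the sorted KCs: the 10 neutrophil genes summed to 149, 127 and 3 CPM, with S100a9 at 56.1, 43.5 and 0.114 CPM, and Il1b was at 113 CPM in the library where they were lowest. In KC-LCs the neutrophil genes summed to 3.72, 4.61 and 14 CPM. Monocyte and dendritic cell genes (8 genes) summed to 730.1, 111 and 109 CPM in sorted KCs and 3.43, 5.33 and 1.77 CPM in KC-LCs, with Xcr1 at 206, 18.4 and 27 CPM and Ly6c2 at 18.8, 2.39 and 2.17 CPM in sorted KCs. The part of these cells in Il1b was not tested.

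In sorted MG, Il1b was at 2.14, 2.03 and 2.79 CPM, and in MG-LCs at 56.4, 15 and 195 CPM. Sorted PMs had 0.468, 0.709 and 0.434 CPM, the lowest group of the series, and PM-LCs 6.04, 0.706 and 29 CPM. Both were higher in culture (log2 fold change -5.29 ± 0.98 (SE), adjusted p = 0.0079 in MG and log2 fold change -4.48 ± 1.23 (SE), adjusted p = 0.0321 in PM), but in PM replicate 2 of the culture lay inside the range of the sorted cells, and the call was lost without replicate 3 of the culture (log2 fold change -2.61, adjusted p = 0.0716) or without any 1 of the sorted PM libraries (adjusted p = 0.103 to 0.122). The call in MG was lost without MG replicate 1 (adjusted p = 0.0505), and the log2 fold change was -3.998 without MG-LC replicate 3. AMs were the opposite case: 95.2, 75.2 and 88.7 CPM sorted and 7.38, 4.27 and 8.36 CPM in AM-LCs, a fall in all 3 cultures (log2 fold change 3.67 ± 0.29 (SE), adjusted p = 1.46e-04). The 10 neutrophil genes summed to 103 to 125 CPM in AMs and 324 to 736 CPM in AM-LCs, where the neutrophil gene S100a9 was at 0.425, 0.0382 and 0 CPM, and their part in Il1b was not tested.

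Il1rn encodes the IL-1 receptor antagonist (chr2:24336853-24351494, plus strand). It had its highest mean in sorted AMs, at 378, 383 and 367 CPM, and AM-LCs had 81.9, 316 and 255 CPM. Those groups did not overlap, yet the difference did not pass (log2 fold change 0.77 ± 0.44 (SE), adjusted p = 0.182), as the cultures spread widely. Sorted KCs had 48.2, 70.7 and 70.8 CPM and KC-LCs 7.15, 26 and 25.3 CPM, a smaller difference that passed (log2 fold change 1.73 ± 0.48 (SE), adjusted p = 0.0274) but was lost without any 1 of 5 of the 6 libraries (all but sorted KC replicate 1; adjusted p = 0.0301 to 0.0745, with a log2 fold change of 1.30 without KC-LC replicate 1).

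Sorted MG had almost no Il1rn, with 1.04, 0.568 and 0.835 CPM, against 90.5, 13 and 10.2 CPM in MG-LCs (log2 fold change -5.59 ± 1.06 (SE), adjusted p = 0.00843). Sorted PMs had 2.81, 4.8 and 3.77 CPM and PM-LCs 19.4, 147 and 24.9 CPM (log2 fold change -4.07 ± 0.84 (SE), adjusted p = 0.0113). In both cultures 1 library stood above the others, replicate 1 of MG-LCs and replicate 2 of PM-LCs, and these were the libraries with the most fibroblast and mesothelium RNA of their groups (30970, 7.39 and 1012 CPM in MG-LCs and 22.9, 2208 and 365 CPM in PM-LCs). In KC-LCs (by little) and AM-LCs, replicate 2 held the most Il1rn and replicate 3 the most fibroblast and mesothelium RNA. The part of that RNA in Il1rn was not tested. Without MG replicate 2 or 3 the call in MG was lost (adjusted p = 0.0524 and 0.0526), and in PM without any 1 sorted library (0.0502 to 0.0639). The log2 fold change was -3.87 in MG without MG-LC replicate 1 and -2.52 in PM without PM-LC replicate 2. The lowest cultures, at 10.2 and 19.4 CPM, were still above every sorted library of their population.

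The balance of antagonist and agonist was read as the ratio of Il1rn to the sum of Il1a and Il1b, per kb of exon, since the exons of Il1rn are longer (5535 bases, against 1974 and 1907). In sorted MG this ratio was 0.00313, 0.00157 and 0.00228, the lowest of the series. It was 0.0645, 0.0773 and 0.121 in KCs, 0.189, 0.214 and 0.211 in PMs and 0.75, 0.967 and 0.775 in AMs. The 4 sorted populations did not overlap in this ratio. The cultures did, with 0.411, 0.169 and 0.0128 in MG-LCs, 0.279, 0.312 and 0.0467 in KC-LCs, 0.176, 1.63 and 0.0343 in PM-LCs and 0.213, 0.849 and 0.739 in AM-LCs. The lowest value in each of MG-, KC- and PM-LCs was replicate 3, the library with the most Il1a and Il1b. No test was made on the ratios.

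**Figure D2:**
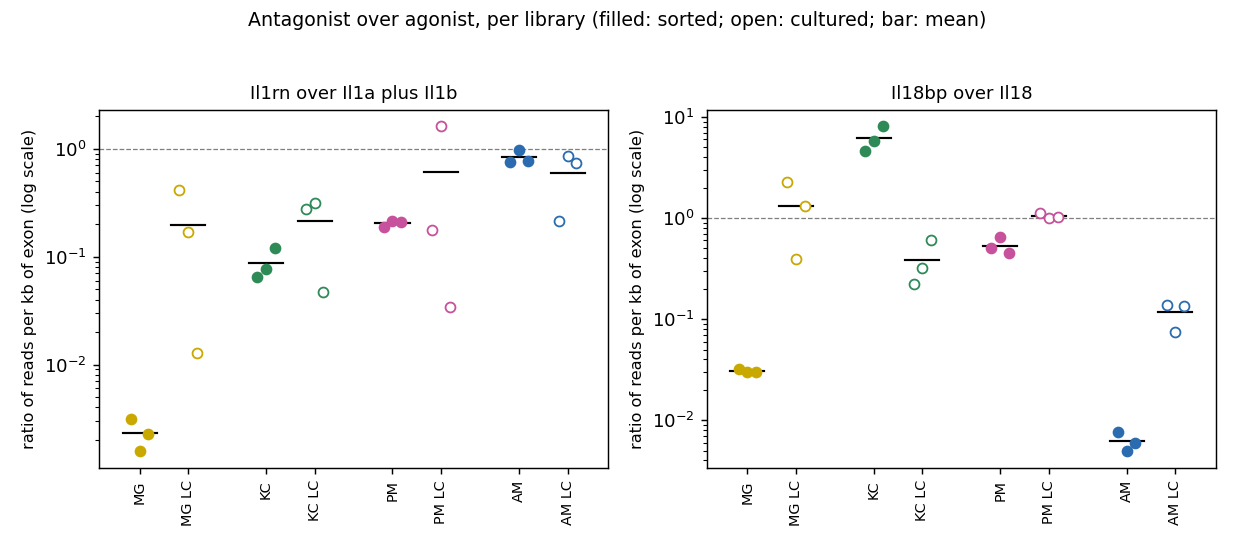
Ratio of Il1rn to Il1a plus Il1b (left) and of Il18bp to Il18 (right), in reads per kb of exon on a log axis, for each library (filled: sorted, open: cultured) with a bar at the mean and a dashed line at 1. The sorted groups are separate on both sides, and the right panel shows KCs at 4.62 to 8.15 and AMs at 0.00493 to 0.0076.

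Il18 (chr9:50554827-50581840, plus strand) encodes a cytokine that many resting macrophages keep as an uncut store. Sorted cells had 20.7, 23.5 and 22.6 CPM in MG, 53.4, 53.9 and 47.7 CPM in KCs, 20.6, 20.6 and 24.6 CPM in PMs and 360.4, 283 and 289 CPM in AMs. AMs stood above all others (log2 difference KC minus AM -2.58 ± 0.14 (SE), adjusted p = 1.37e-07), KCs came next, and MG and PMs did not differ beyond their spread (-0.03 ± 0.14 (SE), adjusted p = 0.872). The cultures were at 6.03, 12 and 12 CPM in MG-LCs, 10.7, 16.5 and 17.2 CPM in KC-LCs, 22.7, 15.2 and 13.7 CPM in PM-LCs and 21.5, 67.9 and 21.5 CPM in AM-LCs. Il18 was thus lower in culture in AMs (log2 fold change 3.08 ± 0.47 (SE), adjusted p = 0.00187, and 3.83 without AM-LC replicate 2) and KCs (log2 fold change 1.84 ± 0.27 (SE), adjusted p = 0.00285). In MG the fall passed on the adjusted p but not on the fold (log2 fold change 1.11 ± 0.31 (SE), adjusted p = 0.0279), and in PMs it passed neither (log2 fold change 0.35 ± 0.25 (SE), adjusted p = 0.326).

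Il18bp (chr7:102014885-102018690, minus strand, with 2.6% of its exon bases shared with Numa1 on the other strand) was highest in sorted KCs. KCs had 723, 918 and 1139 CPM, against 30.2, 39 and 32.2 CPM in PMs, 8.04, 4.09 and 5.07 CPM in AMs and 1.94, 2.06 and 2 CPM in MG. All 6 differences between sorted populations passed both thresholds, the smallest being MG minus AM (log2 difference -1.56 ± 0.25 (SE), adjusted p = 3.33e-04). KC-LCs had 6.91, 15.5 and 31 CPM, a fall of the mean by a factor of 52.1 (log2 fold change 5.74 ± 0.62 (SE), adjusted p = 9.36e-04). The log2 fold change was 6.39 without KC-LC replicate 3. Endothelial genes (8 genes) summed to 415 to 838 CPM in sorted KCs and 19.98 to 44.6 CPM in KC-LCs, and their part in Il18bp was not tested.

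In MG the direction was the reverse, with 39.9, 14 and 46.5 CPM of Il18bp in MG-LCs (log2 fold change -4.11 ± 0.50 (SE), adjusted p = 0.00235). PM-LCs had 75.3, 44.9 and 41.4 CPM and AM-LCs 8.75, 15 and 8.5 CPM, and neither differed from its sorted cells past the threshold (adjusted p = 0.1001 and 0.0718). Set over Il18 per kb of exon, Il18bp gave ratios of 4.62, 5.8 and 8.15 in KCs and 0.221, 0.32 and 0.613 in KC-LCs. In MG the ratio was 0.032, 0.0298 and 0.0303 sorted and 2.26, 0.397 and 1.32 in MG-LCs. Per kb, the antagonist thus led in every sorted KC library and in 2 of 3 MG-LC libraries. The agonist led in every KC-LC and sorted MG library. Sorted PMs had 0.501, 0.646 and 0.447, and PM-LCs 1.13, 1.004 and 1.03, just above 1. AMs had the lowest ratios, 0.0076, 0.00493 and 0.00598, and AM-LCs 0.139, 0.0752 and 0.135. Which side of 1 a ratio fell on depended on the division by exon length. Left undivided, the mean ratio for PMs was already 1.56 when sorted, against 3.09 when cultured. For KCs the undivided means were 18.2 sorted and 1.13 cultured, both above 1. Only MG changed sides on the means with and without length (undivided, 0.0901 sorted and 3.89 cultured).

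Tnf (chr17:35199381-35202007, minus strand), one of the first cytokines that macrophages transcribe after a stimulus, was low in 3 sorted populations, with 3.79, 5.25 and 7.61 CPM in MG, 15.3, 13.4 and 7.22 CPM in KCs and 4.98, 2.65 and 4.01 CPM in PMs. Sorted AMs had 34.8, 40.8 and 41.3 CPM, more than each of the others (KC minus AM log2 difference -1.69 ± 0.34 (SE), adjusted p = 0.00219). The cultures held 12.6, 49.3 and 150.2 CPM in MG-LCs, 40, 64.5 and 586 CPM in KC-LCs and 29.9, 23 and 476 CPM in PM-LCs, above every sorted library of their population. Tnf was higher in MG-LCs (log2 fold change -3.71 ± 0.90 (SE), adjusted p = 0.0184), in KC-LCs (log2 fold change -4.24 ± 1.04 (SE), adjusted p = 0.0176) and in PM-LCs (log2 fold change -5.53 ± 1.31 (SE), adjusted p = 0.0186). The calls were lost without any 1 sorted library in MG and PM (adjusted p = 0.0677 to 0.0855 and 0.0756 to 0.086) and without KC replicate 2 or 3 (0.0611 and 0.064). Without replicate 3 of the culture the log2 fold change was -2.53 in MG, -2.12 in KC and -2.74 in PM. AM-LCs, at 41.7, 35.5 and 18.8 CPM, overlapped sorted AMs (log2 fold change 0.29 ± 0.26 (SE), adjusted p = 0.389).

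Replicate 3 held the most Tnf, Il1a and Il1b of its group in MG-, KC- and PM-LCs alike. For Tnf it exceeded the mean of the other 2 libraries 4.85-fold in MG-LCs, 11.2-fold in KC-LCs and 18-fold in PM-LCs; for Il1b 5.45-, 9.55- and 8.59-fold; and for Il1a 5.15-, 19.6- and 7.08-fold. In AM-LCs replicate 3 was the lowest for Tnf, and replicate 1 held the most Tnf and Il1a. Over all 9 members, replicate 3 was highest for 4 in MG-LCs, 8 in KC-LCs, 4 in PM-LCs and 2 in AM-LCs. The shares of all 17408 genes that passed the filter were 31.4%, 30.5%, 36.5% and 27.9%. Of the 15 immediate early and heat shock genes, 11, 13 and 14 were highest in replicate 3 in MG-, KC- and PM-LCs. In AM-LCs, 10 of the 15 were highest in replicate 1 (38.2% of all genes). Egr1, an early transcription factor, was at 605, 171 and 1941 CPM in MG-LCs, 99.9, 125 and 1689 CPM in KC-LCs and 34.5, 66.6 and 2206 CPM in PM-LCs. Tnfaip3, which encodes the NF-κB inhibitor A20, was at 68, 200 and 418, 69.4, 92.6 and 462 and 165, 91.5 and 1124 CPM in the same order. The labels name no batch or day for these libraries, and what set them apart was not tested. These 2 genes were chosen after their values were seen.

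**Figure D3:**
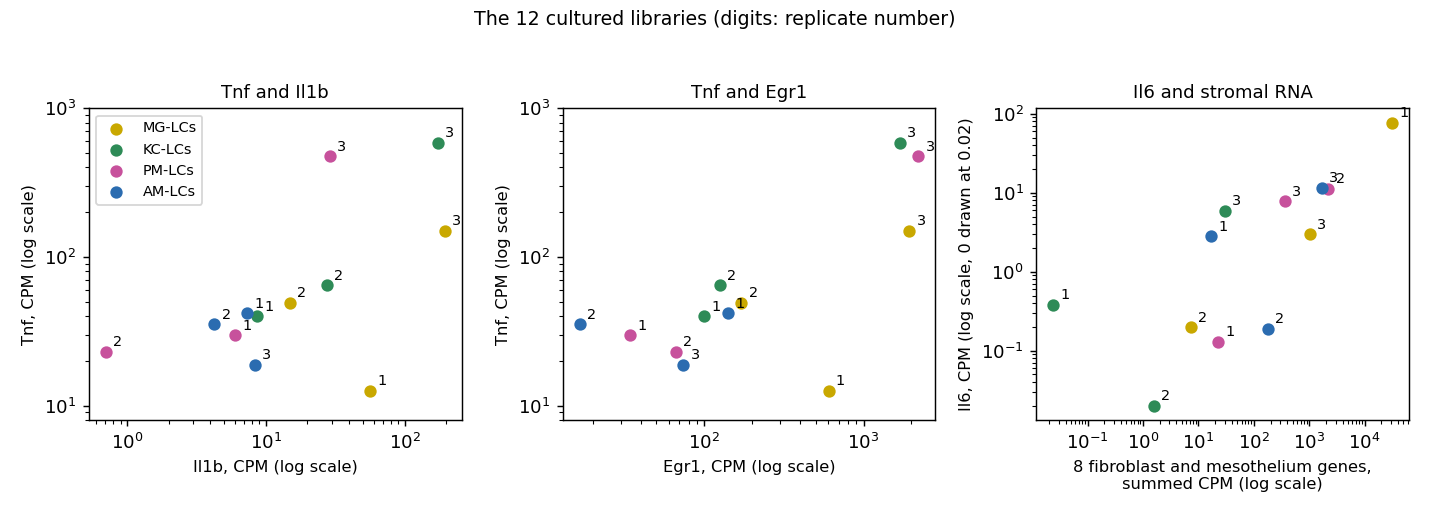
The 12 cultured libraries with their replicate numbers on log axes: Tnf against Il1b, Tnf against Egr1, and Il6 against the summed CPM of 8 fibroblast and mesothelium genes. Replicate 3 of MG-, KC- and PM-LCs lies at the upper right in the first 2 panels (Tnf 150.2 to 586 CPM), and the highest Il6, 77.6 CPM, belongs to MG-LC replicate 1, where the stromal genes reach 30970 CPM.

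Il6 (chr5:30013114-30019981, plus strand), the cytokine that drives the acute phase response, stayed at or below 11.6 CPM in 23 of the 24 libraries. Sorted cells had 8.57, 8.84 and 9.38 CPM in MG, 3.04, 9.99 and 6.79 CPM in KCs, 4.68, 2.62 and 2.68 CPM in PMs and 0.837, 0.384 and 0 CPM in AMs. AMs had less than each of the others (PM minus AM log2 difference 3.04 ± 0.91 (SE), adjusted p = 0.021), and MG, KCs and PMs did not differ past the threshold. The cultures had 77.6, 0.199 and 2.97 CPM in MG-LCs, 0.384, 0 and 5.9 CPM in KC-LCs, 0.129, 11.3 and 7.87 CPM in PM-LCs and 2.84, 0.191 and 11.6 CPM in AM-LCs. The 3 libraries of each culture spread widely and overlapped the sorted cells, and no population passed (adjusted p = 0.435 in MG, 0.4302 in KC, 0.562 in PM and 0.1003 in AM). Without MG-LC replicate 1 the direction in MG turned (log2 fold change 2.45, adjusted p = 0.0883), and without AM-LC replicate 2 the difference in AM passed (-4.20, adjusted p = 0.040), as it did with DESeq2 (-3.67, adjusted p = 0.0191). In MG-, PM- and AM-LCs the library with the most Il6 was also the one with the most fibroblast and mesothelium RNA, and in KC-LCs as well, where that list reached only 29.8 CPM (AM-LCs 17.1, 181 and 1667 CPM, KC-LCs 0.024, 1.59 and 29.8 CPM). Its part in Il6 was not tested.

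The 5′ flanks of Tnf, Il1a, Il1b and Il6 are shown because the cultures highest in the first 3 of these genes were not, in MG- and PM-LCs, those highest in Il6. RefSeq windows on GRCm38.p6 were found for 7 of the 9 genes (Il10 and Osm had no entry), and 250 bases before the start site were searched on both strands for the AP-1 motif TGANTCA, the C/EBP motif TTGCNNAA, the TATA box TATAAA and the NF-κB consensus. Capitals mark the matches, none of which overlap. The windows are chr17:35202008-35202257, chr2:129309973-129310222 and chr2:129371140-129371389 on the minus strand and chr5:30012864-30013113 on the plus strand, each written 5′ to 3′.
Tnf: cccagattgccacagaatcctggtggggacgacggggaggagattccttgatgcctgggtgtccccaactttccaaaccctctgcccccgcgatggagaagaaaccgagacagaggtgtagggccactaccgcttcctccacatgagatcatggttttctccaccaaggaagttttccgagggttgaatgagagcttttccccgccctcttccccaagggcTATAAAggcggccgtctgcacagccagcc
Il1a: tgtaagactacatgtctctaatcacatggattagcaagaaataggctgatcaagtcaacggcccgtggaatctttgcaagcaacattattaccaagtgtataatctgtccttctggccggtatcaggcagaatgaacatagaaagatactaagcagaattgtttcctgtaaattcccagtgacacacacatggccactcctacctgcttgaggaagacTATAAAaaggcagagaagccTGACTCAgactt
Il1b: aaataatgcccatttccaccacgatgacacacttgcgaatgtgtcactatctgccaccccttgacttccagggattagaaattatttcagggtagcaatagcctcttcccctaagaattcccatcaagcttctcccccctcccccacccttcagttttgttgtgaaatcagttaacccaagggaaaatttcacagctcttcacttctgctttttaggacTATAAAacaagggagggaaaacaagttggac
Il6: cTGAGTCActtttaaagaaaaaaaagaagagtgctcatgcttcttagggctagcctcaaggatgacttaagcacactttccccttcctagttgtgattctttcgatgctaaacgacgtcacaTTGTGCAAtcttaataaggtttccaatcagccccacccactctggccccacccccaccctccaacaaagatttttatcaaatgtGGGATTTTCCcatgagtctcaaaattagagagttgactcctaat
Tnf, Il1a and Il1b carry a TATA box just before the start, at positions -29 to -24, -32 to -27 and -31 to -26, and 12.4% of the 32851 promoter windows in the RefSeq table hold one anywhere. Il6 carries the NF-κB consensus at -44 to -35 (7.25% of windows), an AP-1 motif at -249 to -243 (6.75%) and, on the minus strand, a C/EBP motif at -128 to -121 (9.56%). Il1a has an AP-1 motif at -12 to -6. Of the genes not shown, Il1rn has one at -141 to -135 in only 1 of its windows, chr2:24336610-24336859. Il18bp has a C/EBP motif at -49 to -42, and Il18 a TATA box match on the minus strand at -175 to -170. These matches describe the letters in the windows and are no evidence of binding.

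Osm (chr11:4236420-4241026, plus strand), a gp130 cytokine that macrophages release and that acts mainly on stromal cells and hepatocytes, changed in all 4 populations. Sorted cells had 22.6, 22.2 and 28.3 CPM in MG, 8.07, 3.27 and 1.26 CPM in KCs, 14, 10.2 and 11.1 CPM in PMs and 212, 194 and 389 CPM in AMs. MG-LCs had 90.8, 151 and 149.7 CPM, KC-LCs 82.1, 206 and 219 CPM and PM-LCs 206, 156 and 194 CPM, and none of these overlapped their sorted cells. Osm was higher in culture in MG (log2 fold change -2.47 ± 0.25 (SE), adjusted p = 0.0015), KC (log2 fold change -5.30 ± 0.76 (SE), adjusted p = 0.00264) and PM (log2 fold change -3.98 ± 0.22 (SE), adjusted p = 4.97e-05). AM-LCs had less than AMs, at 107, 18 and 58.4 CPM (log2 fold change 2.11 ± 0.60 (SE), adjusted p = 0.0235), a call lost without AM replicate 1 or 3 or AM-LC replicate 3 (adjusted p = 0.05098, 0.0835 and 0.05101). The log2 fold change was -6.21 in KC without sorted KC replicate 1 and 2.73 in AM without AM-LC replicate 1. Unlike Tnf, Osm in MG-, KC- and PM-LCs stayed within a factor of 2.67 inside a group.

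Il10 (chr1:131019845-131024974, plus strand), which encodes the main anti-inflammatory cytokine of macrophages, was close to absent in AMs in both states, with 3 reads in the 3 sorted libraries together and 1 read in the 3 AM-LC libraries. Sorted MG also held 1 read in all. KCs had 4.81, 6.31 and 7.7 CPM and PMs 0.434, 0.6 and 0.705 CPM. MG-LCs had 1.28, 9.91 and 2.94 CPM, KC-LCs 2.5, 7.3 and 35.6 CPM and PM-LCs 10.6, 3.56 and 16.2 CPM, so every MG-LC and PM-LC library exceeded its sorted cells. Il10 was higher in MG-LCs than in MG (adjusted p = 0.00467). The mean CPM of MG-LCs was 585 times the CPM of the pooled MG libraries. The interval of 105 to 23120 covers only the counting error of the single read in MG, not the spread between MG-LC libraries. Il10 was also higher in PM-LCs (log2 fold change -4.11 ± 0.65 (SE), adjusted p = 0.00371), while in KC the groups overlapped (log2 fold change -1.24 ± 0.86 (SE), adjusted p = 0.299). Il10 was the 1 gene of the 9 that differed between the cultures (F-test adjusted p = 0.0215), where 7.85% of all genes tested did. It was higher in MG-, KC- and PM-LCs than in AM-LCs (adjusted p = 0.0138, 0.00856 and 0.0127). With 1 read in the AM-LC libraries, it passed the filter on low counts only through the other cultures. The F-test call was lost without any 1 AM-LC library.

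Counted over the 9 genes, MG-LCs differed from MG in 6, all of them higher in culture (Il1b, Il1rn, Tnf, Il10, Il18bp and Osm), where 16.4% of all genes tested were called higher in culture and 29.8% in either direction. Of these 6, Il10 had 1 read in the 3 sorted MG libraries and passed the filter on low counts only through MG-LCs. Il10 also enters the MG values below for libraries that did not overlap, for the adjusted p alone and for the median. PM-LCs were also higher in 6 of 9 (Il1a, Il1b, Il1rn, Tnf, Il10 and Osm), against 10.2% higher in culture and 17.7% in all. KC-LCs differed in 6 of 9, with 4 lower (Il1a, Il1rn, Il18 and Il18bp, background 14.7%) and 2 higher (Tnf and Osm, background 7.62%), of 22.3% in all. AM-LCs differed in 3 of the 8 genes tested, all lower in culture (Il1b, Il18 and Osm), against 8.62% and 21.5%; Il10 did not pass the filter on low counts. Sorted and cultured libraries did not overlap for 8 of 9 members in MG (65.4% of all genes tested), 6 of 9 in KC (54.1%), 6 of 9 in PM (48.8%) and 6 of 8 in AM (61.7%). On the adjusted p alone the counts were 7 (46.4%), 6 (33.8%), 6 (28.9%) and 4 (48.7%). The median log2 fold change of the members tested was -3.71 in MG, 1.68 in KC, -4.04 in PM and 0.53 in AM, and that of all genes between -0.04 and 0.01. The count fell from 6 to 4 without any 1 of the 3 sorted MG libraries, from 6 to 3 without KC replicate 2 or 3, and from 6 to 2 without any 1 of the 3 sorted PM libraries. The sorted group then held 2 libraries. It fell from 3 to 2 without AM replicate 1, AM replicate 3 or AM-LC replicate 3.

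**Figure D4:**
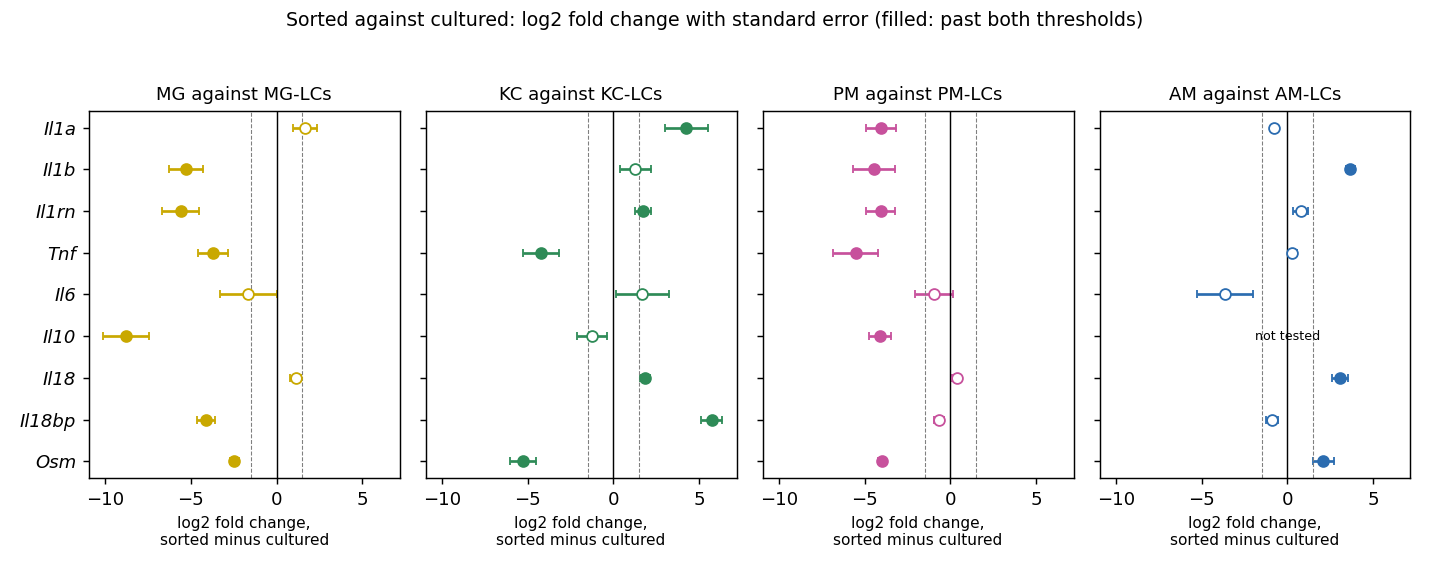
Log2 fold change, sorted minus cultured, with its standard error for the 9 genes in each population, filled where both thresholds were passed (dashed lines at -1.5 and 1.5). Points left of 0 are higher in culture: 6 filled points each in MG and PM, 2 in KC and 0 in AM, and the Il10 point in MG rests on 1 read in sorted MG.

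The difference between sorted and cultured cells depended on the population for 8 of the 9 genes, Il6 being the exception (interaction of state and population in a model of all 24 libraries, F-test with adjusted p below 0.05), against 36.3% of all genes. Set against the mean of the other 3 populations, the difference in MG passed for 4 members (19.8% of all genes), in KC for 4 (15.4%), in PM for 5 (13.2%) and in AM for 6 (17.1%). Adjusted p ranged from 1.29e-07 for Il18bp to 0.0271 for Tnf among the 8, and was 0.368 for Il6. The count was 8 again without replicate 3 of MG-, KC- and PM-LCs together, a setting chosen after the values were seen. With those 3 libraries left out, Il1a differed between the cultures (adjusted p = 0.033) and Il10 no longer did (adjusted p = 0.0872). Without MG-LC replicate 1 or 2, 2 members differed between the cultures (Il10 with Il1rn or Il18bp).

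Levels of different genes can be compared only per length. In CPM per kb of exon, Il1a led in sorted MG (62.5), Il18bp in KCs (306), and Il18 in PMs (21.3) and AMs (302). In the cultures Tnf led in KC-LCs (141) and PM-LCs (108), followed by Osm (74.5 and 81.5). Osm led in MG-LCs (57.5), and Il1a in AM-LCs (62.9). The lead of Tnf rested on replicate 3: the per-kb ratio of Osm to Tnf was 1.48, 2.31 and 0.27 in the 3 KC-LC libraries and 4.98, 4.88 and 0.293 in the 3 PM-LC libraries.

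Receptors for these cytokines were followed as a list of 15 genes. Of the 13 tested in MG, 3 were higher ex vivo and 2 in vitro, with 2 and 1 of 12 in KC, 2 and 1 of 12 in PM, and 2 and 4 of 14 in AM. Of all genes, 29.8%, 22.3%, 17.7% and 21.5% were called in MG, KC, PM and AM in either direction. Il6ra, the IL-6 receptor chain, was higher ex vivo in all 4 populations (log2 fold change 3.63 in MG, 2.39 in KC, 2.44 in PM and 4.19 in AM). Lifr, the receptor chain for LIF that pairs with gp130, fell in culture in MG (107 CPM sorted and 8.4 CPM cultured) and PM (71.9 CPM sorted and 2.54 CPM cultured) and was higher in AM-LCs at a low level (0.229 CPM sorted and 5.41 CPM cultured, log2 fold change -4.57, adjusted p = 0.00313). Il10ra was lower in culture in MG (log2 fold change 3.02, adjusted p = 0.0122), KC (log2 fold change 1.70, adjusted p = 0.014) and AM (log2 fold change 1.65, adjusted p = 0.0024), and Tnfrsf1b, the second TNF receptor, was higher in PM-LCs (log2 fold change -1.52, adjusted p = 0.0104). In AM-LCs, Il1r2, a decoy receptor for IL-1, had 306, 16.2 and 76.2 CPM with almost no read in sorted AMs, and was also called higher in MG-LCs (-4.47), and Osmr, the OSM receptor, had 1.54, 5.95 and 103 CPM with no read in sorted AMs; fibroblast and mesothelium RNA was also highest in the third of these libraries.

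Genes of the inflammasome and of release (16 genes) were called at or below the share of all genes (29.8%, 22.3%, 17.7% and 21.5% of all genes in MG, KC, PM and AM). Of 15 tested in MG, 2 were called in each direction, of 16 in KC 3 were higher ex vivo, of 16 in PM there was no call, and of 15 in AM 1 was higher ex vivo and 2 in culture, with list medians between 0.06 and 0.66 on the log2 scale. P2rx7, the ATP-gated channel that triggers the NLRP3 inflammasome, was higher in sorted MG (253 CPM sorted and 47.5 CPM cultured), and Nlrp1b in sorted MG, KCs and AMs (2.35, 2.09 and 1.90). Mefv, the pyrin gene, had 33.1, 54.8 and 52.6 CPM in sorted KCs and no read in KC-LCs. Ninj1, whose product ruptures the membrane of dying cells, was higher in MG-LCs (log2 fold change -2.24, adjusted p = 0.00657) and AM-LCs (log2 fold change -3.60, adjusted p = 1.07e-04), and Pycard, the adaptor ASC, in AM-LCs (log2 fold change -1.84, adjusted p = 3.02e-04).

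Signal transduction genes and NF-κB subunits (18 genes, all tested in every population) gave 3 calls in MG (2 of them higher ex vivo), 1 higher ex vivo in KC, and none in PM and AM, where the list medians were 0.29 and 0.55. The share of all genes called was 29.8%, 22.3%, 17.7% and 21.5% in MG, KC, PM and AM. Nfkb1 and Rel were higher in sorted MG (log2 fold change 2.12, adjusted p = 0.0069 for Nfkb1 and log2 fold change 1.87, adjusted p = 0.0177 for Rel), and Nfkbiz in MG-LCs (log2 fold change -2.31, adjusted p = 0.0275). Map3k8, a kinase upstream of ERK, was higher in sorted KCs (log2 fold change 2.01, adjusted p = 0.00813).

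Feedback inhibitors and mRNA decay factors (20 genes, all tested) were called as follows: 7 were higher in vitro and 1 ex vivo in MG, 4 and 1 in KC, 8 and 1 in PM, and 4 and 3 in AM, beside 29.8%, 22.3%, 17.7% and 21.5% of all genes called in either direction. In KC and MG the share higher in culture was 7.62% and 16.4% of all genes, and in PM 10.2%. Atf3, a repressor induced by stress and Toll-like receptors, was higher in culture in all 4 populations (26.4 CPM sorted and 438 CPM cultured in MG, 47.5 CPM sorted and 775 CPM cultured in KC, 40.3 CPM sorted and 819.5 CPM cultured in PM and 54 CPM sorted and 356 CPM cultured in AM). Tnip3, an NF-κB inhibitor that binds A20, was higher in MG-LCs (0.0401 CPM sorted and 20.9 CPM cultured), PM-LCs (1.21 CPM sorted and 31.4 CPM cultured) and AM-LCs (1.24 CPM sorted and 22.4 CPM cultured). Dusp1, a phosphatase of MAP kinases, was higher in MG-, KC- and PM-LCs (-2.03, -3.01 and -3.10), and Dusp2 in MG-, PM- and AM-LCs (-2.24, -5.14 and -1.68). Zfp36l2, which promotes decay of AU-rich mRNA, was higher in sorted MG (log2 fold change 1.54, adjusted p = 0.013) and AMs (log2 fold change 2.40, adjusted p = 2.68e-04), and Bcl3 in sorted KCs (log2 fold change 3.22, adjusted p = 5.07e-04) and PMs (log2 fold change 2.09, adjusted p = 0.0124) but in MG in the culture (log2 fold change -2.38, adjusted p = 0.0278). Nfkbid was higher ex vivo in AM (2.12), and Socs1 in vitro in AM and PM (-2.87 and -1.92).

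The list of 15 immediate early and heat shock genes had 4 members higher in vitro and 2 ex vivo in MG, 6 and 2 of 15 in KC, 8 and 1 of 14 in PM, and 0 and 2 of 14 in AM. Of all genes, 16.4% in MG, 7.62% in KC and 10.2% in PM were called higher in vitro, and 8.62% in AM higher ex vivo. Fos was higher in KC-LCs (129.9 CPM sorted and 1308 CPM cultured) and PM-LCs (16 CPM sorted and 1255 CPM cultured) and lower in AM-LCs (970 CPM sorted and 245 CPM cultured), and Btg2 was also lower in AM-LCs (log2 fold change 1.78, adjusted p = 0.00367). Fosb was higher in MG-, KC- and PM-LCs (log2 fold change -2.68 in MG, -4.11 in KC, and 45.9, 21.8 and 144 CPM in PM-LCs with 0, 0 and 0.271 CPM in PMs), Egr1 in KC-LCs (log2 fold change -4.47, adjusted p = 0.0212), Nr4a1 in MG- and PM-LCs (-6.33 and -2.37), and Egr2 in MG-, KC- and PM-LCs (-2.75, -3.07 and -6.09). Of the heat shock genes, Hspa1a and Hspa1b were higher in sorted KCs and Dnajb1 was not called (log2 fold change -0.36, adjusted p = 0.251). Hspa1a had 235, 144 and 75 CPM in sorted KCs and 0.816, 0.947 and 3.25 CPM in KC-LCs. Hspa1b was higher ex vivo in MG, KC and PM (3.41, 8.06 and 2.29), and Hspa1a also in MG (2.15). Genes of this list can respond within minutes to handling of cells, and its part in the cytokine values was not tested.

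Of 21 other cytokine genes, 12 or 13 were tested in each population, and 5 were higher ex vivo and 4 in vitro in MG, 5 and 2 in KC, 1 and 3 in PM, and 2 and 4 in AM, beside 29.8%, 22.3%, 17.7% and 21.5% of all genes called in either direction. Il16, a chemoattractant for CD4+ cells, was higher ex vivo in all 4 populations (3.65 in MG, 2.14 in KC, 2.99 in PM and 2.74 in AM). Tnfsf13b, the B cell factor BAFF, was higher in sorted MG (log2 fold change 1.69, adjusted p = 0.0272), and Ltb, a TNF relative made by lymphocytes, in sorted KCs (14.5 CPM sorted and 0.596 CPM cultured), where genes of T and NK cells summed to 218, 38.1 and 23.7 CPM. Ltb was also higher in sorted MG (log2 fold change 4.44, adjusted p = 0.0106) and lower in sorted AMs than in AM-LCs (log2 fold change -3.65, adjusted p = 0.0103). Tnfsf9 was higher in MG-, KC- and AM-LCs (-4.34, -4.26 and -4.67) and Il15 in PM-LCs (log2 fold change -1.78, adjusted p = 0.00164). Lif was called higher in KC-LCs (-5.58), at very low levels (0.00906 CPM sorted and 0.597 CPM cultured). Il33 and Lif were called higher in MG-LCs, but their reads came almost wholly from replicate 1, with 889.6, 0.473 and 12.8 CPM of Il33 and 237, 0.398 and 11.5 CPM of Lif, the library with 30970 CPM of fibroblast and mesothelium genes.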

How the data were processed

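Total RNA was taken from 12 sorted and 12 cultured libraries. The authors prepared full-length cDNA with the SMARTer v4 kit and libraries with Nextera XT, which do not mark strand, and sequenced single reads, which per their methods were trimmed by Trimmomatic and aligned to mm10 by STAR. The submitters' processing notes name Trimmomatic 0.36 and STAR 2.5.2b. The authors deposited raw counts of reads per gene, with no normalization. Library totals ran from 29569486 to 47105111 counts (median 35965750), and intervals on reads cover counting error only. Symbols and exon lengths came from GENCODE on the same assembly (45143 of 45706 identifiers).

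Counts were tested in R 4.3.3 with edgeR 4.0.16 (quasi-likelihood, two-sided, TMM, filterByExpr with a minimum count of 10, Benjamini-Hochberg adjustment over all genes tested). Sorted and cultured libraries were compared within each population, and a call needed both an adjusted p under 0.05 and a change beyond 1.5 on the log2 scale. F-tests over the 4 sorted groups, over the 4 cultured groups and of the interaction in all 24 libraries were called on the adjusted p. CPM used TMM factors over the 17408 genes that passed the filter in 24 libraries. The procedures were tested on simulated counts. The members and lists were chosen with earlier results of these data known. Named genes are the 9 members and, in each pathway list and comparison, at most the 2 called genes of largest fold change in each direction with an average log2 CPM above 3, and calls of such a gene in the other populations are given beside it. For likeness, the 3 genes of highest Pearson r were named among those with a mean log2 CPM above 3. Alternatives were limma-voom (limma 3.58.1, the method of the authors), DESeq2 1.42.0, RLE size factors, no filter, a filter of 1 CPM in 3 libraries, the adjusted p alone, a replicate block, 1 model for all 24 libraries, ratios without length, and each library left out in turn. No pair of libraries of a group agreed within counting error.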

Additional observations from a re-analysis of the deposited data

Results flagged for a closer look

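The difference between sorted and cultured cells in 1 population was set against the mean difference of the other 3 populations, as an interaction in edgeR's quasi-likelihood model of all 24 libraries, and 19 of the 36 values for the 9 genes passed an adjusted p of 0.05. A negative value means that the gene was, relative to the other populations, higher in culture. In MG the values were -5.42 for Il1b, -5.00 for Il1rn, -7.24 for Il10 and -5.44 for Il18bp, on the log2 scale (19.8% of all genes passed). In KC they were 5.24 for Il1a, 4.63 for Il1rn, 7.58 for Il18bp and -3.90 for Osm (15.4%). In PM they were -5.75 for Il1a, -4.36 for Il1b, -3.06 for Il1rn, -1.66 for Il18 and -2.10 for Osm (13.2%). In AM they were 6.51 for Il1b, 3.42 for Il1rn, 4.77 for Tnf, 5.69 for Il10, 1.97 for Il18 and 6.03 for Osm (17.1%). The 4 contrasts share their libraries and are not independent. The Il10 value in AM rests on 3 and 1 reads in the AM groups, and that in MG on 1 read in sorted MG, so both depend on the prior count. Groups of 3 libraries were too small for a search for single libraries that stand apart.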

How the results depend on the processing

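Leaving out 1 library at a time gave counts of called members from 3 to 6 in KC, from 2 to 6 in PM, from 0 to 2 between the cultures, from 4 to 7 in MG and from 2 to 4 in AM. Between the cultures, 6 members differed with all 24 libraries in 1 model (Il1a, Il1b, Il1rn, Il10, Il18 and Il18bp). Directions turned only for values that had not passed: Il6 in MG was 1.29 with limma-voom and between -2.22 and 2.45 with 1 library left out, Il6 in PM was 0.32 with limma-voom, and Il10 in KC ran from -1.77 to 0.37, the last without KC-LC replicate 3. Limma-voom lost Il1b, Il1rn and Tnf in MG and Il1b and Tnf in PM, and gained Il1a in MG, as DESeq2 did. DESeq2 also called Il6 in AM, for 4 calls there, and gave no adjusted p for Il1rn and Il6 in MG and for Tnf in PM. Its 6 calls in MG thus held Il1a and not Il1rn. The filter of 1 CPM in 3 libraries removed Il1b in PM, for 5 calls there, and Il6 in AM. The model of 24 libraries lost Il1rn in KC. RLE size factors and no filter on low counts changed no call. Il18bp, Osm and Il10 in MG, Il18, Il18bp and Osm in KC, Il10 and Osm in PM, and Il1b and Il18 in AM passed under every alternative run for them. Causes were not tested. Depth limited Il10 in MG and AM, at 1 to 3 reads a group.

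Replicate numbers were tested as a block. Same-numbered libraries of a population correlated from -0.104 to 0.056 in their deviations from group means, no pair of groups had all 3 correlations above 0.1, and 2 of 6 libraries in MG, 3 in KC, 1 in PM and 3 in AM matched their own number best, so the numbers were not taken as a pairing. Between cultures the highest values were 0.288 for replicate 3 of MG- and PM-LCs and 0.276 for replicate 1 of PM- and AM-LCs. Replicate 3 of KC-LCs gave 0.23 with PM-LCs and 0.208 with MG-LCs. With the block, counts were 6 in MG, 5 in KC, 5 in PM and 3 in AM, 9 between sorted populations, 2 between the cultures (Il1a and Il10) and 7 for the interaction; Tnf in KC and Il1b in PM were not called, and Il6 in MG was 1.34.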

Other observations

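Over the 24 libraries, the genes whose log2 CPM followed each cytokine most closely, among 8388 genes with a mean log2 CPM above 3, were Klf6 (r = 0.941), Wdr91 and Gas2l3 for Tnf, Myl12a (r = 0.938), Acp5 and Cd300lf for Il1rn, and Wdr62 (r = 0.862), Srpk1 and Wdyhv1 for Il1b. For Il18bp they were Helz2 (r = 0.92), Dhrs1 and Nlrc5, for Il18 Baz1a (r = 0.912), Fam118b and Clec16a, and for Il10 Apobec1 (r = 0.956), Gpr65 and Wwp1. For Osm they were Tmem43 (r = 0.864), Csrnp1 and Arl11, for Il1a Dennd2a (r = 0.849), Ficd and Lilra5, and for Il6, with the lowest values, Socs5 (r = 0.773), Ktn1 and Arhgap35. The points are 8 groups of 3 libraries, so that differences between groups and depth are shared by all genes, and these values are a description.

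Among the 12 sorted libraries the log2 CPM of Tnf ran with Il18 (r = 0.95) and Il1rn (r = 0.859), which AMs lead, and among the 12 cultures with neither (r = -0.009 and -0.466). Il10 and Osm were opposed in the sorted libraries (r = -0.798) and ran together in the cultures (r = 0.827). AM-LCs had the lowest group mean of both among the cultures. For Osm the groups overlapped, with AM-LC replicate 1 (106.9 CPM) above replicate 1 of MG-LCs (90.77 CPM) and KC-LCs (82.14 CPM).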
